A study of Bos taurus and Sus scrofa with 6 samples.

Results

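Of 19994 genes in the cattle gene table, 7 were followed here: AARD, AQP8, DEFB119, SPINLW1, SPOCK2, CRYAB and FATE1. They were chosen by their expression values, as leading genes of the Sertoli-like cells of these same cattle libraries, so their cattle levels are given as a description, with no test. The pig gene table of 22694 genes lists 5 of them under the same symbols, and DEFB119 and SPINLW1 (the older symbol of EPPIN) were not analysed in pig. The questions were how closely each gene was tied to Sertoli-like cells in cattle, and whether the same cells of pig held it. Testes were taken by castration from 3 prepubertal Holstein cattle aged 4.5 months and from 3 prepubertal mixed breed pigs aged 3 months, and none of the animals carried a transgene or received a treatment that the labels name. Whole testicular cell suspensions, with no sorting, were loaded on a droplet instrument at 1 library per animal. Each captured RNA molecule was counted by its unique molecular identifier (UMI). Species, age and breed differ together between the groups and cannot be told apart.

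Sertoli cells are the somatic cells of the seminiferous epithelium. They answer to follicle-stimulating hormone, feed and anchor the germ cells, form the blood-testis barrier and secrete the fluid of the tubule lumen, and before puberty they still divide and produce anti-Müllerian hormone. The 7 genes encode proteins of different kinds. DEFB119 is a beta-defensin, one of the small secreted antimicrobial peptides made along the male reproductive tract. SPINLW1 encodes eppin, a protease inhibitor with a WAP and a Kunitz domain that coats sperm. SPOCK2 (testican-2) is a secreted proteoglycan related to SPARC, AQP8 is a membrane channel for water and small solutes, and CRYAB (alpha B crystallin) is a small heat shock protein that keeps other proteins from aggregating. FATE1 is an X-linked gene named for its expression in fetal and adult testis, and its protein sits at contacts between mitochondria and the endoplasmic reticulum. AARD encodes an alanine and arginine rich domain containing protein that has been described in the developing testis.

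The libraries held 5805223 to 53325608 UMIs in cattle and 6245189 to 40099873 in pig, with the fewest in cattle 1 and pig 1, and gave 17482 cattle cells and 9206 pig cells. Clusters were named from marker genes, with the 7 genes kept out of the clustering and of the naming. Sertoli-like cells numbered 506, 2368 and 1328 in cattle 1, 2 and 3 and 1164, 2268 and 209 in pig 1, 2 and 3, so that the Sertoli-like values of pig 3 rest on few cells. Cattle Sertoli-like cells held FSHR, the receptor of follicle-stimulating hormone, at 87.5 ± 16.6 CPM (counts-per-million, UMIs of a gene scaled to the same UMI total in every sum; mean ± SD, n = 3 animals here and below) against 3.01 ± 0.441 in all other named cells, AMH at 177 ± 33.5 against 9.38 ± 2.01, and CLDN11, a barrier protein, at 420 ± 139 against 17.3 ± 5.85. INHBB was at 0 in cattle, and SOX9 is not a symbol of the cattle table. In pig, SOX9 stood at 327 ± 57.8 against 45.4 ± 26.6 and CLDN11 at 1125 ± 439 against 88.8 ± 89.9, while AMH was near 0 (1.21 ± 0.544 against 0.452 ± 0.487). Most Sertoli-like clusters came largely from 1 library, with 81.1% to 100% of the cells of each cattle cluster and 61.2% to 98.4% of each pig cluster from 1 animal. Pairs of libraries of a species shared 8 to 61 cell barcodes.

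In the pig RefSeq annotation of Sscrofa11.1, the build named for the deposited pig values, AARD lies on chromosome 4 (chr4:21715688-21720760, minus strand), AQP8 on chromosome 3 (chr3:21493564-21503778, minus), SPOCK2 on chromosome 14 (chr14:74938164-74968126, minus), CRYAB on chromosome 9 (chr9:39638505-39643530, minus) and FATE1 on chromosome X (chrX:123106086-123113178, plus). The 250 bases before the annotated start of 4 of them are shown because these genes divided in pig: FATE1 and SPOCK2 were abundant in Sertoli-like cells of both species, while AQP8 and AARD were abundant in those of cattle and at or near 0 in those of pig. Each is read 5′ to 3′ on the strand of its gene, and capitals mark matches to the GATA motif AGATAA on either strand.
FATE1: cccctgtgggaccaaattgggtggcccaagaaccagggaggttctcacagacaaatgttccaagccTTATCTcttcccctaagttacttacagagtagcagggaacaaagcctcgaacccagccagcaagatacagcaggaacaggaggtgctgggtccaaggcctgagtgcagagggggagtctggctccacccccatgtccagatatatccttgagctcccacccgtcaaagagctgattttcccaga
SPOCK2: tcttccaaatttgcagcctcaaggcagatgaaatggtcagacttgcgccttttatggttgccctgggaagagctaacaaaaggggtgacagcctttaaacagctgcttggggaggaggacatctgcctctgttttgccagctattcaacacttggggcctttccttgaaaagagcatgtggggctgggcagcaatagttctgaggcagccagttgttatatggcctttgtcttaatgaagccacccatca
AQP8: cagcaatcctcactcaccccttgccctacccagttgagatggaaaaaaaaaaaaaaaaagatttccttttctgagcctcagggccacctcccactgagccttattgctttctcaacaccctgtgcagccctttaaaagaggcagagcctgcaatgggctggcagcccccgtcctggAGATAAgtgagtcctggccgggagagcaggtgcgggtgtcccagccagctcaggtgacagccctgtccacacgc
AARD: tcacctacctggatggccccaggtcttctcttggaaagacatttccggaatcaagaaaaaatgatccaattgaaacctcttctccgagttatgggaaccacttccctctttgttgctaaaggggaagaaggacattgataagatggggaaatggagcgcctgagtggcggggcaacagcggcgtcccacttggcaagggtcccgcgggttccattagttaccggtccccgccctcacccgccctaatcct
The windows are chrX:123105836-123106085, chr14:74968127-74968376, chr3:21503779-21504028 and chr4:21720761-21721010. AGATAA was the only one of 3 motifs searched that occurred, once in FATE1 with its first base 184 bases before the gene start (minus strand) and once in AQP8 at 74 bases before it (plus strand). It was found in 8.08% of the 19556 pig promoter windows of this length. The SOX motif AACAAT (7.07% of windows) and the NR5A1 motif AAGGTCA (3.21%) were in none of the 4, and the 3 motifs do not overlap one another. The AARD window held 11 CpG dinucleotides, that of AQP8 4, of FATE1 2 and of SPOCK2 1. These are descriptions of the letters in the windows. Only the 3 exact strings were searched, so other forms of these motifs were not looked for and may be present.

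In cattle, each of the 7 genes was highest in Sertoli-like cells in all 3 animals. Since cattle values chose the genes, nothing is read from this count, and 4.3% of the 14186 genes of the cattle table compared had the same pattern. The 2 genes for secreted defence and inhibitor proteins reached high levels. DEFB119 stood at 755, 959 and 731 CPM in the Sertoli-like cells of cattle 1, 2 and 3 and at 11.9, 45.5 and 45.8 CPM in all other named cells of the same animals. No animal came close to an overlap, and the next cell type was lymphocyte-like in cattle 1 (20.3 CPM) and macrophage-like in cattle 2 and 3 (58.2 and 53.7 CPM), 13.6 to 37.2 times lower. SPINLW1 stood at 1814, 795 and 2022 CPM against 44.4, 36.3 and 107 CPM. It varied most among the animals (1543 ± 656 CPM), with cattle 2 lowest, and was 13.4 to 29.8 times its level in the next cell type.

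AARD was at 567, 546 and 473 CPM in Sertoli-like cells and at 11.9, 17.7 and 18.4 CPM in the others, 23.0 to 26.6 times its level in myoid-like cells, the next type in every animal. The myoid-like range of AARD (20.5 to 22.1 CPM) lay above the lymphocyte-like one (8.11 to 19.0 CPM), and the remaining types overlapped with their neighbours in the order. For AQP8 the Sertoli-like levels were 919, 645 and 633 CPM, beside 38.8, 22.9 and 25.2 CPM in the others. The next type differed by animal (myoid-like, endothelial-like and Leydig-like) and lay 20.8 to 22.2 times lower. Below Sertoli-like cells the cell types overlapped, except that the myoid-like range (24.9 to 43.2 CPM) lay above the macrophage-like one (16.3 to 23.8 CPM). The levels of DEFB119 and SPINLW1 in the other cell types could not be ordered beyond the spread of the 3 animals.

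FATE1 was at 1591, 1265 and 1039 CPM in cattle Sertoli-like cells and at 82.1, 58.4 and 66.1 CPM elsewhere, 13.1 to 13.2 times the next type, which was myoid-like in cattle 1 and 3 and macrophage-like in cattle 2. SPOCK2 was at 211, 347 and 392 CPM against 7.83, 12.3 and 14.5 CPM. Macrophage-like cells came next with 35.7, 41.9 and 27.9 CPM, above the range of every other type but Sertoli-like, and the ratio to them was 5.90 to 14.1. These macrophage-like levels rest on 48 UMIs in 555 cells, and the endothelial-like ones on 5 UMIs in 134 cells. With the animals pooled, the 151 macrophage-like cells of a cluster led by BoLA DR-ALPHA and CD74, genes of antigen presentation, held SPOCK2 at 61.1 CPM. The 404 cells of a cluster led by BRN and RNASE6 held 19.6 CPM, and these 2 levels divide the same few UMIs. CRYAB was the least restricted of the 7. Its Sertoli-like levels were 757, 536 and 421 CPM, while germ-like cells held 64.8, 188 and 114 CPM, a ratio of 2.85 to 11.7, and no other type exceeded 27.9 CPM in any animal.

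**Figure D1:**
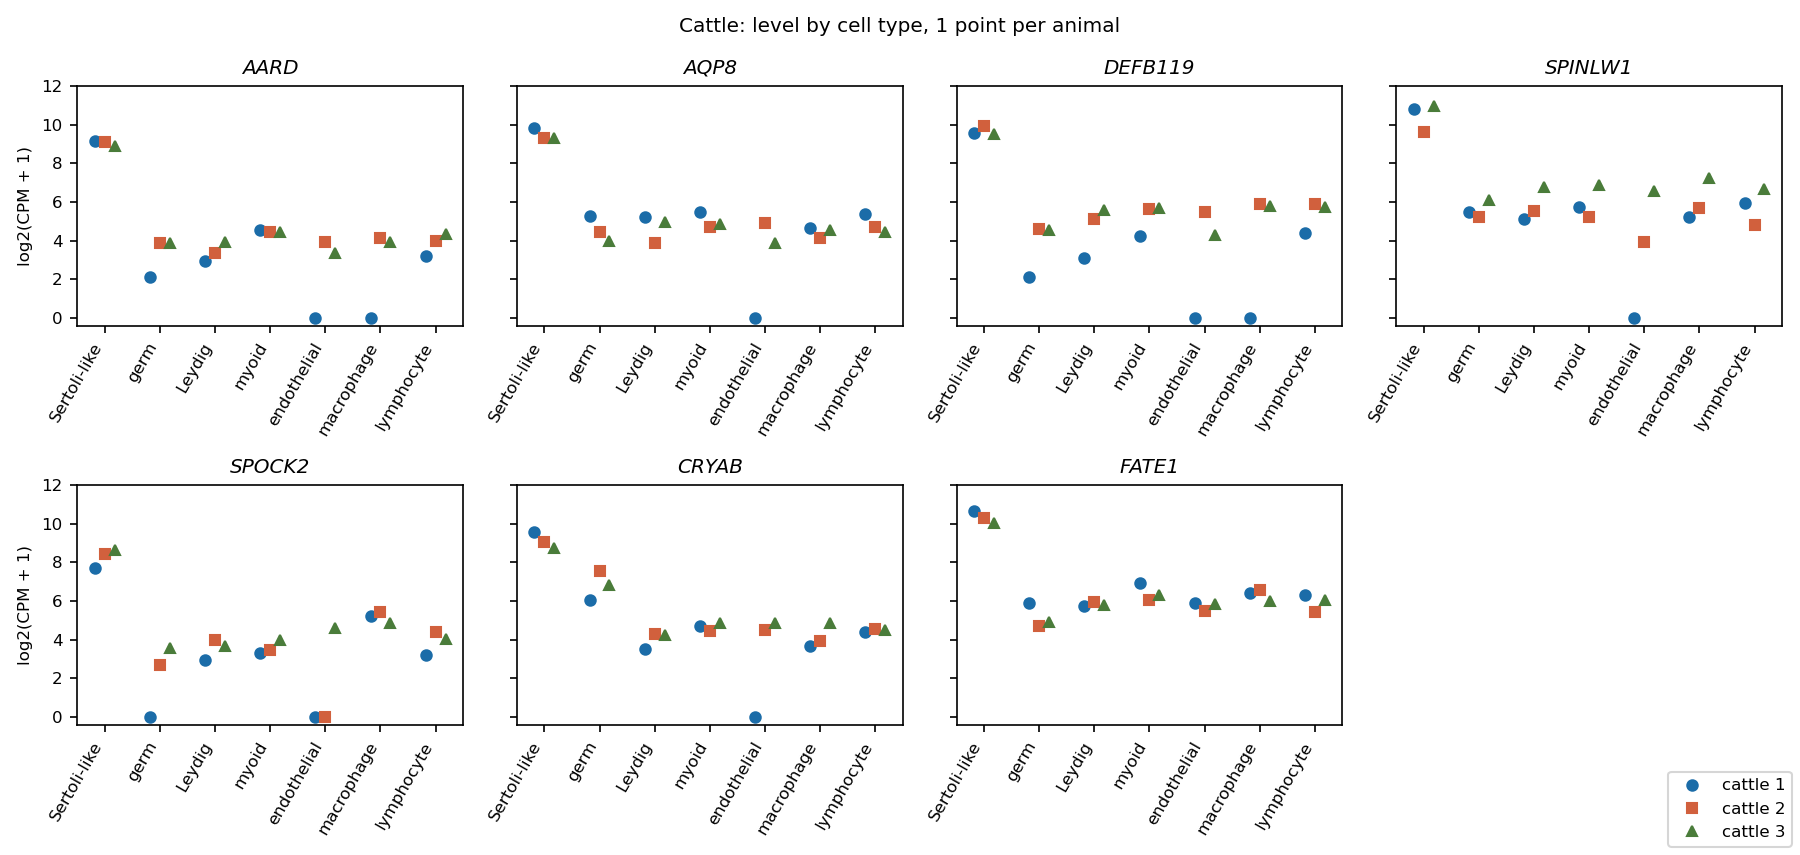
Levels of the 7 genes in cattle on a log2(CPM + 1) axis, by named cell type, with 1 point per animal. Sertoli-like points sit at the top of every panel. As a mean share of the same gene's Sertoli-like level, the highest other levels are those of germ-like cells for CRYAB (64.8 to 188 CPM) and of macrophage-like cells for SPOCK2 (27.9 to 41.9 CPM, from 48 UMIs in all).

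RNA released from broken cells is captured in every droplet, and the cattle files hold the barcodes needed to see it. Barcodes with 1 to 50 UMIs held DEFB119 at 474, 741 and 388 CPM in cattle 1, 2 and 3, which was 64.4% of the Sertoli-like level on average. AARD stood at 24.2% of its Sertoli-like level there, SPOCK2 at 19.2%, AQP8 at 29.5%, CRYAB at 42.3%, SPINLW1 at 43.7% and FATE1 at 42.0%. The Sertoli markers were measured in the same way, summed without INHA because Leydig-like cells also held INHA, a choice made after the data were seen. They stood at 23.9% of the Sertoli-like level in these barcodes and, averaged over animals, at 2.85% (lymphocyte-like) to 6.13% (Leydig-like) in the named cell types. Most of the 7 genes lay at like shares in the other cell types. Mean shares of the Sertoli-like level were 1.54% to 4.0% for AARD, 2.23% to 4.35% for AQP8, 1.97% to 5.24% for DEFB119, 2.13% to 5.29% for SPINLW1 and 2.81% to 6.81% for FATE1. CRYAB in germ-like cells (23.6%, 8.56% to 35.1% over animals) and SPOCK2 in macrophage-like cells (12%, 7.12% to 16.9%) lay above these, where the markers stood at 5.39% and 4.95%. Whether free RNA makes up the low levels outside Sertoli-like cells was not tested.

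Single cells were compared after each was thinned to 500 UMIs. A FATE1 UMI was then found in 49.2%, 43.5% and 38.5% of the Sertoli-like cells of cattle 1, 2 and 3 (70.4%, 83.5% and 93.4% at full depth, with median depths of 1227.5, 2699.5 and 6255.5 UMIs). In lymphocyte-like cells, which are not expected to hold it, the thinned shares were 3.75%, 1.71% and 3.26% (4.30%, 5.59% and 17.9% at full depth, medians of 572.5, 1305 and 3553 UMIs). AARD was found in 23.9%, 22.0% and 19.8% of thinned Sertoli-like cells and AQP8 in 35.1%, 24.9% and 23.9%. At least 3 of the 7 were detected in 40.5%, 29.6% and 33.1% of thinned Sertoli-like cells. No other cell type of any cattle animal passed 0.377%. This contrast follows from the choice of the genes on cattle values, and nothing is read from it. In cattle 1, 24 of 506 Sertoli-like cells were too shallow for thinning and were left out.

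Pig divided the 5 genes listed there. FATE1, SPOCK2 and CRYAB were highest in Sertoli-like cells in all 3 pigs, a pattern of 3.72% of 15191 pig genes, while AQP8 was close to 0 and AARD was not found in any Sertoli-like cell. All 5 passed the filter of at least 10 counts, AARD through germ-like cells alone. In the test of Sertoli-like against all other named cells (edgeR's quasi-likelihood test on UMI sums per animal), 1589 of 15192 genes were higher (10.5%) and 2308 were lower (15.2%), with a median log2 fold of -0.17 over all genes tested. With library size alone as the scaling, 926 were higher and 3527 lower, so that higher genes made up 20.8% of calls and not 40.8%, and the median was -0.56. FATE1, SPOCK2 and CRYAB were among the higher genes under both scalings. With the pig as a replicate block, 2659 were higher and 3900 lower.

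FATE1 stood at 1053, 1161 and 1266 CPM in the Sertoli-like cells of pig 1, 2 and 3 and at 127, 211 and 63.1 CPM in all other named cells. The ranges of the 2 groups did not overlap, and the log2 fold was 3.52 ± 0.40 (SE; adjusted p = 0.00181, Benjamini-Hochberg over all genes, edgeR's quasi-likelihood test). The Sertoli-like levels in cattle, 1039 to 1591 CPM, covered the pig range. In pig, myoid-like cells were next, with FATE1 at 593, 700 and 502 CPM, 1.66 to 2.52 times below the Sertoli-like level. The part of free RNA or of mixed barcodes in this level was not tested. Against myoid-like cells alone, the log2 fold of FATE1 was 1.27 ± 0.47 (adjusted p = 0.0901, edgeR). The contrasts with single cell types, here and below, came from a joint fit that took all sums of a pig as independent. Their p-values do not account for the shared animal. With the pig as a block, FATE1 was called against every type. Against the other 5 types its log2 folds ran from 2.54 (lymphocyte-like) to 4.41 (germ-like), each past the threshold. Over all genes tested, 2.94% were called higher than in myoid-like, 6.69% than in Leydig-like, 6.86% than in lymphocyte-like and 8.75% than in endothelial-like cells. The ranges of myoid-like and lymphocyte-like cells (103 to 432 CPM) did not overlap, and those of the types below did.

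SPOCK2 stood at 302, 395 and 469 CPM in pig Sertoli-like cells and at 35.2, 63.3 and 9.63 CPM in the others, and in the same cells of cattle at 211 to 392 CPM. Its log2 fold was 3.84 ± 0.57 (adjusted p = 0.00266, edgeR's quasi-likelihood test). In the joint fit of all types, it was the only one of the 5 called above each of the 6 other cell types. The same call was made for 0.849% of all 15191 genes tested. The smallest of these log2 folds was 2.15 ± 0.65 against myoid-like cells (adjusted p = 0.0297, edgeR), and the largest was 5.13 ± 0.72 against germ-like cells. Myoid-like cells held it at 63.1, 188 and 47.4 CPM, and Leydig-like cells of pig 1 at 88.6 CPM. The call above every type was lost without pig 1, without pig 3, with library size alone, with every barcode of at least 500 UMIs, at a clustering (Leiden) resolution of 2 and with no doublets left out. Without pig 2 or without pig 3, endothelial-like cells were not among the types compared. The pig macrophage-like level of SPOCK2, 9.82, 59.5 and 9.30 CPM, was 1.98% to 15.1% of the Sertoli-like level.

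CRYAB stood at 136, 113 and 84.1 CPM in pig Sertoli-like cells, beside 421 to 757 CPM in those of cattle. Other named cells of pig held 37.7, 35.4 and 7.89 CPM, and the log2 fold was 2.47 ± 0.53 (adjusted p = 0.0112, edgeR's quasi-likelihood test). Without pig 2 the adjusted p was 0.0917. Leydig-like cells held nearly as much, 89.8, 112 and 61.6 CPM, and against them the log2 fold was 0.51 ± 0.63 (adjusted p = 0.692, edgeR). Of the 6 other types, CRYAB was called above germ-like (3.56) and macrophage-like cells (3.53), where 16.3% and 11.6% of all genes tested were called higher. In cattle the ranking was different: germ-like cells were next after Sertoli-like cells, while Leydig-like cells held 10.5 to 18.7 CPM. Pig germ-like cells held 18.6, 13.1 and 3.44 CPM. With every barcode of at least 500 UMIs, with 8000 expected cells, at Leiden resolutions 0.5 and 2 and with no doublets left out, CRYAB was no longer highest in Sertoli-like cells in every pig, and with 8000 expected cells SPOCK2 was not either.

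AQP8, at 633 to 919 CPM in cattle Sertoli-like cells, stood at 0.920, 1.98 and 19.9 CPM in those of pig 1, 2 and 3. These levels rest on 1, 20 and 22 UMIs, and in pig 3 the UMIs came from 7.66% of 209 cells. Other named cells held 1.94, 0.519 and 1.23 CPM, so pig 1 was lower in Sertoli-like cells and pig 2 and 3 were higher. The log2 fold was 2.84 ± 1.02 (adjusted p = 0.0661, edgeR's quasi-likelihood test). Against single types it was called above germ-like (2.36) and endothelial-like cells (3.82), and also above macrophage-like cells (adjusted p = 0.0229, edgeR), for which no fold is given because they held 0 UMIs. Over all genes tested, 16.3%, 8.75% and 11.6% were called higher in these contrasts. It was not called against Leydig-like, lymphocyte-like or myoid-like cells. Myoid-like cells held more AQP8 than Sertoli-like cells in pig 1 (12.6 CPM, from 1 UMI) and pig 2 (2.15 CPM). In pig 1, germ-like (1.95 CPM) and Leydig-like cells (1.23 CPM) also held more than Sertoli-like cells. The contrast with all other cells was called with the pig as a replicate block (adjusted p = 0.000198, edgeR) and without pig 1 (0.0371), and without pig 3 the log2 fold was 0.99. AARD had 0 UMIs in the 3641 Sertoli-like cells of pig, of 12272413 UMIs in all, and pooled over pigs 3 UMIs would have made 0.244 CPM. The 14 AARD UMIs found in named pig cells were all in germ-like cells, 3, 6 and 5 in pig 1, 2 and 3 (1.46, 1.75 and 0.430 CPM). In single pigs, 3 UMIs in Sertoli-like cells would have made 2.76, 0.298 and 2.71 CPM, so the germ-like level lay above this limit in pig 2 and below it in pig 1 and 3. No fold or test is given for AARD in pig, since it reached 10 counts through germ-like cells alone.

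**Figure D2:**
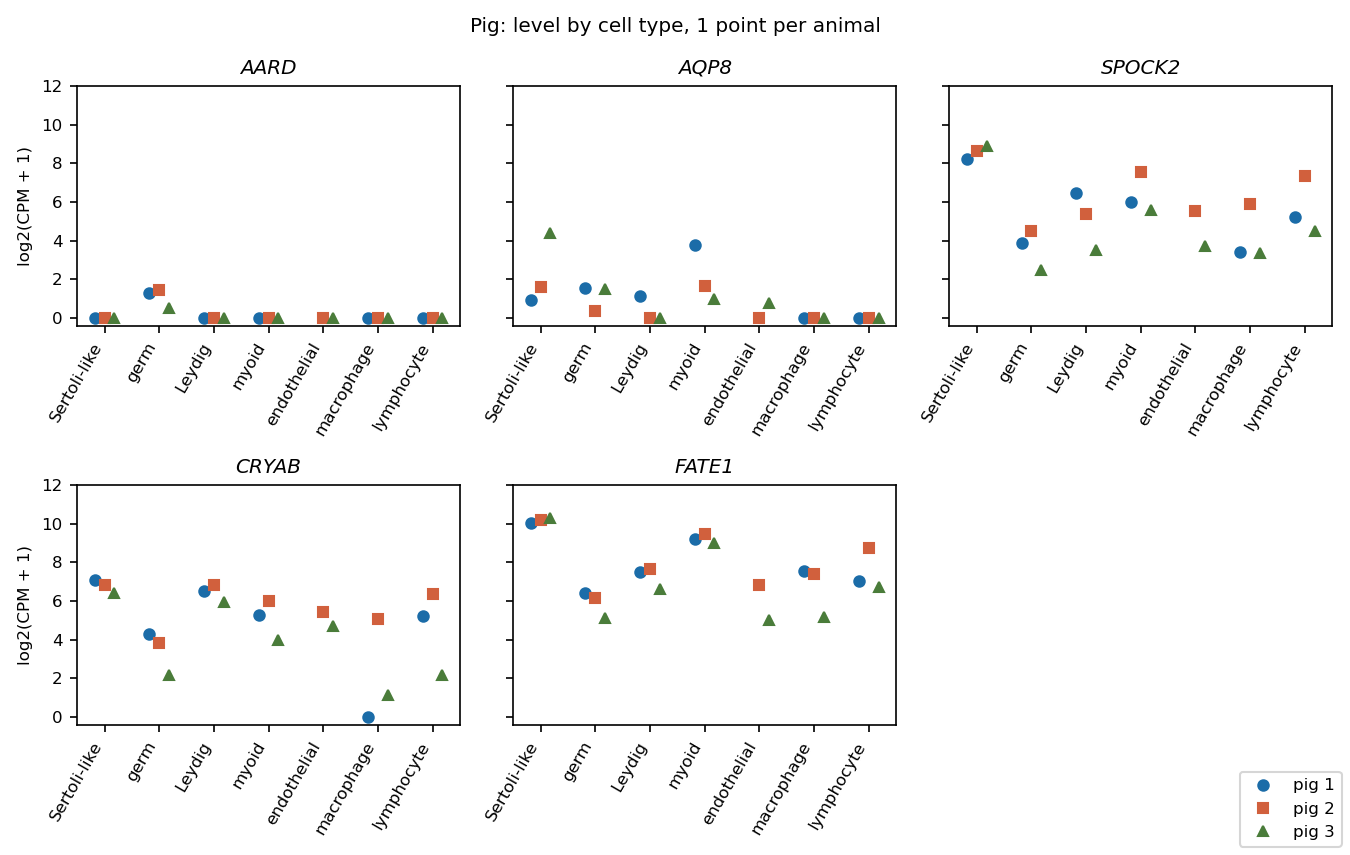
Levels of the 5 genes listed in pig on a log2(CPM + 1) axis, by named cell type, with 1 point per animal for each sum over at least 20 cells. FATE1 and SPOCK2 are highest in Sertoli-like cells, CRYAB is nearly level with Leydig-like cells, AQP8 is near 0 but for pig 3 (19.9 CPM), and AARD has points above 0 in germ-like cells alone.

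Thinned to 500 UMIs, pig Sertoli-like cells held a FATE1 UMI in 39.3%, 42.1% and 36.8% of cells, shares that in cattle were 38.5% to 49.2%. Myoid-like cells of pig followed with 17.0%, 25.7% and 23.6%, against 2.73% to 4.57% in cattle, and lymphocyte-like cells with 10.3%, 7.41% and 6.63%. At full depth the pig Sertoli-like shares were 59.9%, 96.7% and 98.1% and the myoid-like ones 33.0%, 78.8% and 66.8%. SPOCK2 was found in 13.8%, 17.1% and 19.1% of thinned pig Sertoli-like cells and CRYAB in 6.10%, 5.69% and 4.78%. With 2 of the 5 genes nearly missing, at least 3 of the 5 were detected in 0.430% and 0.353% of these cells in pig 1 and 2. They were detected in none of the 209 of pig 3. A count of 3 of 5 genes is not like that of 3 of 7 in cattle. Within pig, the 85 cells of a dividing Sertoli-like cluster led by UBE2C held FATE1 at 1403 CPM and SPOCK2 at 300 CPM, beside 1038 to 1255 CPM and 294 to 452 CPM in the other 4 Sertoli-like clusters.

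Pig myoid-like cells, next after Sertoli-like cells for FATE1, also held UMIs of the Sertoli markers. Summed without INHA, these stood at 38.8%, 40.4% and 8.16% of the Sertoli-like level in the myoid-like cells of pig 1, 2 and 3, where FATE1 stood at 56.3%, 60.3% and 39.7% and SPOCK2 at 20.9%, 47.7% and 10.1%. The FATE1 share was above that of the markers in each pig. Myoid-like cells numbered 88, 382 and 229, and by cluster FATE1 was 403, 465 and 760 CPM in their 3 clusters. The pig files hold no barcode under 500 UMIs, so free RNA could not be measured as in cattle. Pig barcodes of at least 500 UMIs that were not called as cells held FATE1 at 515, 738 and 379 CPM, SPOCK2 at 95.9, 183 and 42.0 CPM and CRYAB at 94.2, 82.4 and 31.0 CPM. Lymphocyte-like cells of pig 2, only 27, had the markers at 39.6% and FATE1 at 37.2% of the Sertoli-like level. The part of free RNA or of mixed barcodes in these levels was not tested.

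**Figure D3:**
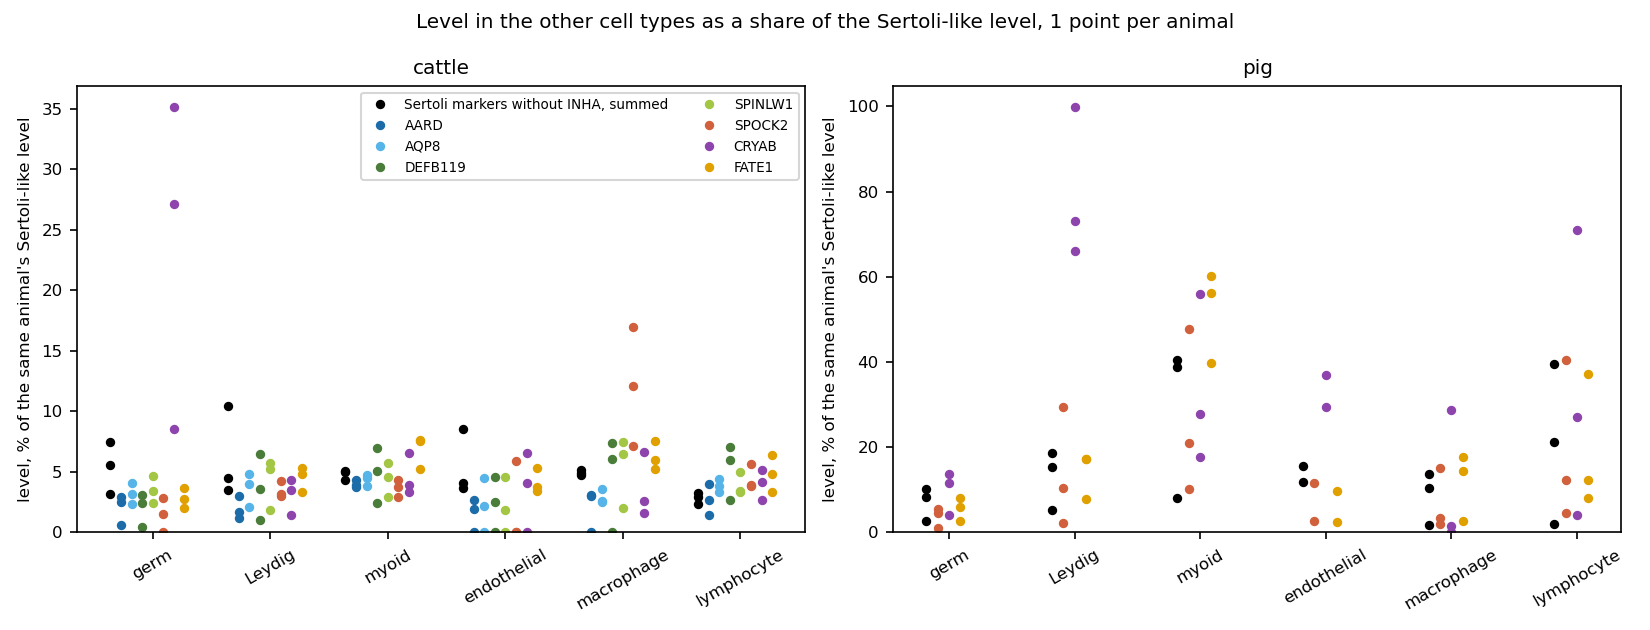
Level of each gene in the other named cell types as a percentage of the Sertoli-like level of the same animal, for cattle (left) and pig (right), with the summed Sertoli markers without INHA in black. AARD and AQP8 are not drawn for pig, and the 2 axes differ in range: cattle points lie under 8% for most genes and reach 35.1% for CRYAB in germ-like cells, while pig points reach 60.3% for FATE1 in myoid-like cells and 99.8% for CRYAB in Leydig-like cells.

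**Figure D4:**
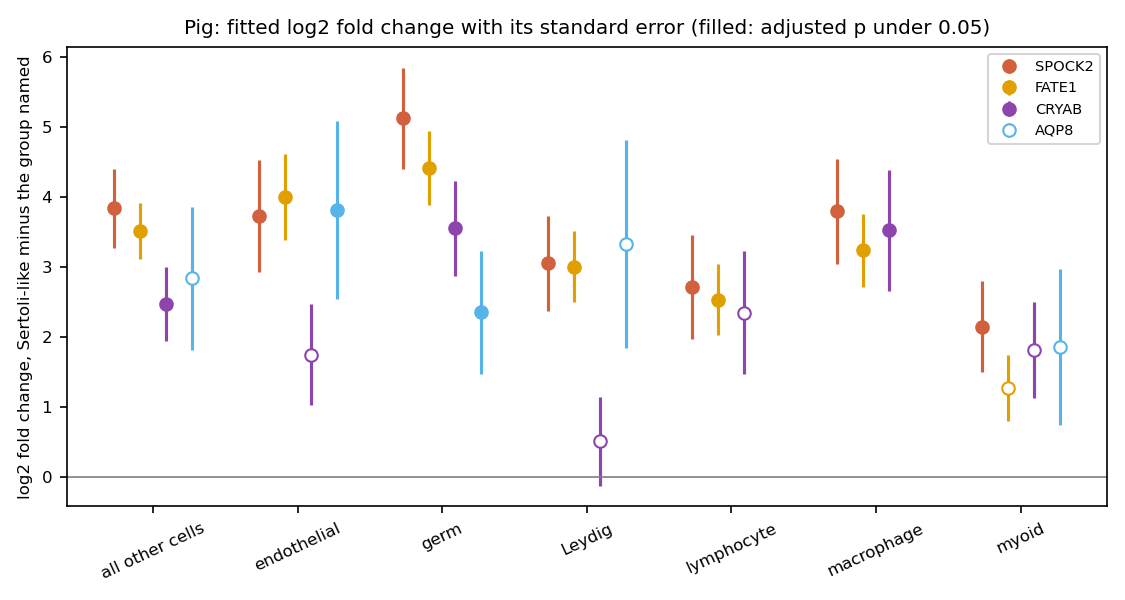
Fitted log2 fold change of 4 genes in pig, Sertoli-like minus the group on the horizontal axis. Bars show a standard error derived from the fold and its F statistic. Points are filled where the adjusted p of edgeR's quasi-likelihood test was under 0.05. SPOCK2 is filled in every contrast, FATE1 in all but the myoid-like one (1.27), and CRYAB lies nearest 0 against Leydig-like cells (0.51). AQP8 is not drawn against macrophage-like and lymphocyte-like cells, which held 0 UMIs of it.

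Relatives of the 7 genes were read from lists of gene families. Unlike the 7, these relatives were not kept out of the clustering, so they may have helped to define the cells compared. Among the beta-defensins, 1 of 3 tested in pig was higher in Sertoli-like cells and none was lower. This was DEFB123, at 157 ± 19.6 CPM against 15.1 ± 10.2 in the others (log2 fold 3.81 ± 0.59, adjusted p = 0.00312, edgeR's quasi-likelihood test), and it was also called above every other cell type. In cattle it stood at 122.7 ± 7.10 CPM against 4.22 ± 1.07, higher in 3 of 3 animals. DEFB124 of pig was at 1.79 ± 0.983 against 1.15 ± 0.252 CPM and was not called. Among the WAP and Kunitz inhibitors, 1 of 5 tested was higher (WFDC2, log2 fold 1.87, adjusted p = 0.0037, edgeR) and 1 was lower (SLPI, -2.07, adjusted p = 0.0384). WFDC2 of pig stood at 40.6 ± 8.92 CPM in Sertoli-like and 41.0 ± 10.0 in macrophage-like cells. In cattle it stood at 2.76 ± 1.79 CPM in Sertoli-like and 61.8 ± 21.3 in germ-like cells, while PI3, an elastase inhibitor, stood at 105 ± 83.4 CPM in cattle Sertoli-like cells against 4.66 ± 3.46 in the others.

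Of 6 aquaporins tested in pig besides AQP8, 1 was higher and none was lower. AQP1, the water channel of vessel walls and many epithelia, stood at 36.7 ± 9.29 CPM in pig Sertoli-like cells, close to the 37.8 ± 10.7 CPM of endothelial-like cells (n = 2 animals), and at 8.17 ± 7.24 CPM in all others (log2 fold 2.55 ± 0.55, adjusted p = 0.0112, edgeR's quasi-likelihood test). AQP11 was at 7.19 ± 2.31 against 10.8 ± 1.78 CPM and was not called. Cattle showed the opposite order, with AQP1 at 0.623 ± 0.701 CPM in Sertoli-like and 21.2 ± 27.4 CPM in myoid-like cells. In the SPARC family, 1 of 7 tested was higher in pig, SPARC itself (2.09, adjusted p = 0.00757), and 4 were lower, SPOCK1 (-3.88), SPARCL1 (-4.19), SMOC2 (-3.80) and FSTL1 (-2.24). SPOCK1 and SMOC2 stood at 0.467 and 0.373 CPM in Sertoli-like cells and reached 10 counts through the other cells. Nothing is read from the calls of SPOCK1 and SMOC2. SPOCK3, as near to SPOCK2 by name as SPOCK1 is, was at 71.8 ± 36.2 against 37.6 ± 22.6 CPM and was not called (adjusted p = 0.0599, edgeR).

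Of 6 small heat shock proteins tested in pig besides CRYAB, 2 were higher, HSPB1 (log2 fold 1.93, adjusted p = 0.00646) and HSPB2 (1.2, adjusted p = 0.0401), and HSPB8 was lower (-3.18, adjusted p = 0.0144, all by edgeR's quasi-likelihood test). HSPB8 stood at 0.840 CPM in Sertoli-like cells and reached 10 counts through the other cells, so nothing is read from its call. HSPB2 is the neighbour of CRYAB, and in the pig annotation the 2 genes lie on opposite strands and overlap. The strand setting of the counting is not given in the sources used here, so how the reads of the pair were shared between them is uncertain. In cattle, HSPB2 followed CRYAB in being present in Sertoli-like (60.7 ± 24.98 CPM) and germ-like cells (99.9 ± 29.99 CPM) and at 5.50 CPM or less on average elsewhere, but the order of the 2 cell types was the reverse of that of CRYAB. Among genes of Sertoli cell differentiation, 2 of 12 tested in pig were higher, CLU (clusterin, 4.24) and GATA4 (2.91), and 3 were called lower. Of these 3, NCAM1 stood at 15.5 ± 4.05 against 44.8 ± 9.06 CPM. SOX8 (31 UMIs in all, 0 CPM in Sertoli-like cells) and KRT18 (33 UMIs, 0.0331 CPM) reached 10 counts through the other cells. Nothing is read from the calls of SOX8 and KRT18. CLU stood at 27815 ± 6429 CPM in pig and 5496 ± 2098 CPM in cattle Sertoli-like cells. For each of the 6 lists, the share over all genes tested was 10.5% higher and 15.2% lower.

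**Figure D5:**
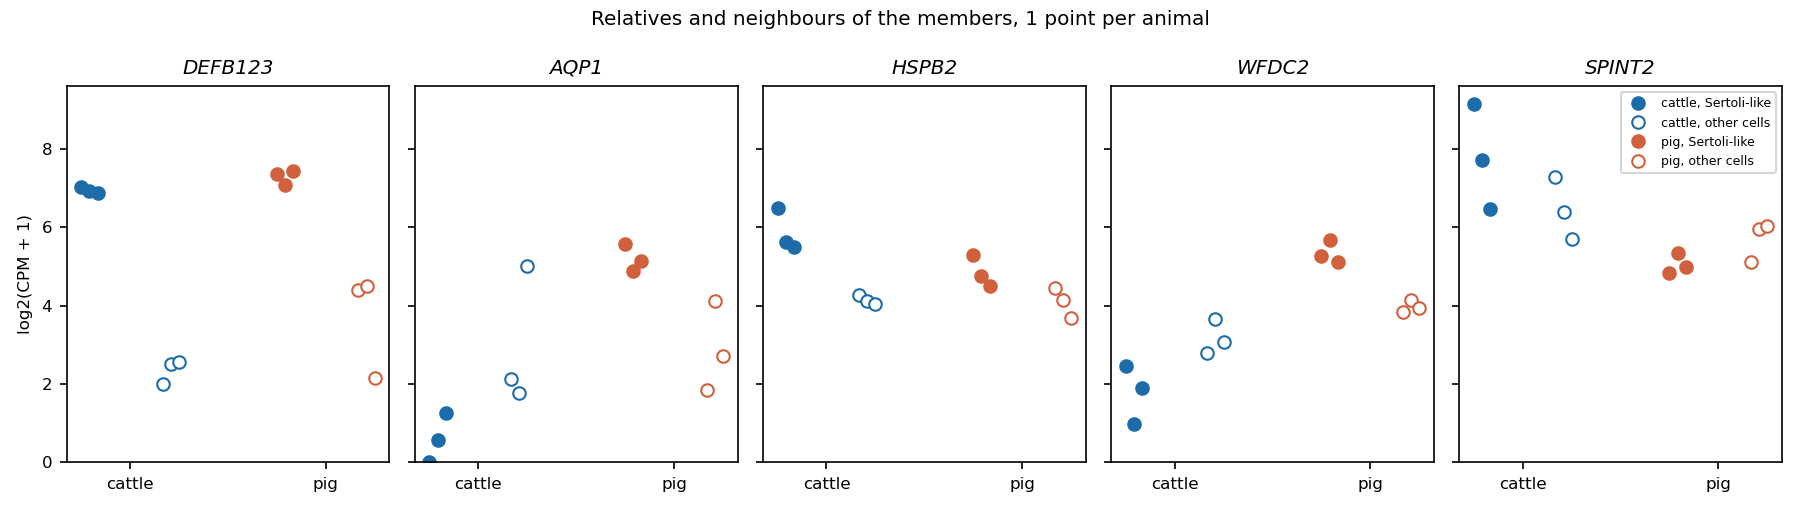
Levels on a log2(CPM + 1) axis of 5 relatives or neighbours of the 7 genes, in Sertoli-like cells (filled) and all other named cells (open) of each animal. DEFB123 is higher in Sertoli-like cells of all 6 animals (means of 122.7 and 157 CPM), while the order for AQP1, WFDC2 and SPINT2 turns between cattle and pig. SPINT2 was not called in the pig test.

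The patterns most like each gene were taken by Pearson correlation of log2(CPM + 1) over 21 sums per animal and cell type in cattle and 20 in pig. These sums share libraries, depth and the contrast of Sertoli-like with other cells, so r is a description. AARD and DEFB119 were each other's closest (r = 0.96), followed for AARD by SLC52A3 (0.96) and PCSK1N (0.95) and for DEFB119 by ACSM1 (0.92). AQP8 was closest to PLEKHB1 (0.95) and SPINLW1 to SIDT2 (0.94), with AQP8 (0.90) the third gene for SPINLW1. SPOCK2 was less closely matched, by MGC140080 (0.87), AMH (0.86) and PRND (0.86), and CRYAB was nearest to ABHD11 (0.92) and FATE1 to MGC133636 (0.96). Pig gave other leading genes. SPOCK2 was nearest to BOD1L1 (0.94), DEFB123 (0.94) and the barrier gene CLDN11 (0.93), FATE1 to CHGA (0.95), B4GALNT1 (0.94) and INHBA (0.94), and CRYAB to LGR4 (0.93). Among the members, FATE1 and SPOCK2 had r = 0.90 over the pig sums, CRYAB and SPOCK2 0.73 and CRYAB and FATE1 0.58. AARD and AQP8 had too few pig UMIs for this measure.

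A neighbour was the nearest annotated gene on either side whose symbol the gene table lists, so genes between them could be passed over. In cattle Sertoli-like cells, each such neighbour stood at a lower level than the gene of the 7 beside it. The 7 were chosen on their values in these same cells, so nothing is read from this order. Beside FATE1, which lies between PRRG3 and CNGA2 in both species, PRRG3 stood at 0.684 ± 0.723 CPM in cattle and 0.911 ± 0.920 in pig Sertoli-like cells, and CNGA2 at 0.287 ± 0.330 and 0.0331 ± 0.0573. Cattle SPOCK2 had CHST3 at 0.567 ± 0.983 and ASCC1 at 21.1 ± 3.10 CPM beside it, and in pig the same pair stood at 18.8 ± 1.28 and 53.9 ± 26.2 CPM, against 7.70 ± 4.54 and 24.8 ± 7.02 in other cells. AARD is followed by RAD21, a cohesin gene, which stood at 115 ± 42.5 CPM in cattle and 87.2 ± 27.8 in pig Sertoli-like cells. SLC30A8, on the other side of AARD in pig and 157940 bases away, stood at 0 CPM in Sertoli-like cells and at 0.624 ± 0.866 CPM in the others. ZKSCAN2, a neighbour of AQP8, was at 0.862 ± 0.605 and 3.77 ± 2.55 CPM. The cattle neighbours of DEFB119 and SPINLW1, DEFB129, DEFB122A, WFDC2 and WFDC8, all stood under 3 CPM in Sertoli-like cells. Cattle neighbours were taken from a RefSeq table of ARS-UCD2.0, a later assembly than that of the files, and for order only.

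By the ratio of Sertoli-like to other cells, with 10 CPM added to both, the cattle genes ranked 3 (SPINLW1), 4 (AARD), 6 (AQP8), 7 (DEFB119), 8 (FATE1), 13 (SPOCK2) and 16 (CRYAB) of 19994. The cattle ranks follow from the choice of the genes. In pig, SPOCK2 ranked 16 and FATE1 18 of 22694, while CRYAB ranked 198, AQP8 1033 and AARD, with 0 UMIs in Sertoli-like cells, 13948. Set side by side, the Sertoli-like levels of cattle and pig were 1298 ± 278 and 1160 ± 107 CPM for FATE1, 316 ± 94.3 and 389 ± 84.0 for SPOCK2, 571 ± 171 and 111 ± 26.1 for CRYAB, 732 ± 162 and 7.60 ± 10.7 for AQP8, and 529 ± 49.3 CPM and 0 for AARD. The levels of other cells in pig were 134 ± 74.1 CPM for FATE1 and 36.0 ± 26.8 for SPOCK2, where cattle held 68.9 ± 12.1 and 11.5 ± 3.39 CPM. No test of the species was made, since cattle values chose the genes, and the gene models of the 2 tables may cover the transcripts differently.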

How the data were processed

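Libraries were made with 10x Genomics v2 chemistry and sequenced in 1 lane. The authors deposited UMI counts per gene and barcode, made with Cell Ranger (version 2.1.0 in the submitters' processing notes, 3.0.2 in the pig matrix header) on ARS-UCD1.2 and Sscrofa11.1. The strand setting of the counting is not given in the sources used here. Replicate numbers follow accession order, since the labels repeat a testis number, and p-values measure only the spread between these animals.

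Cells were called with Cell Ranger's rule at 3000 expected cells, at least 200 genes were required, and the cells with the highest doublet scores were left out, a share that grew with the number of cells in a library. Scanpy 1.11.5 (numpy 2.4.6, scipy 1.17.1, igraph 0.11.9) clustered each species on 2000 variable genes, 30 components and 15 neighbours at Leiden resolution 1. The 7 genes took no part. A cluster took the type whose markers had the highest mean log2 fold over the median of all clusters, with 10 CPM added to both. At least 3 of these markers had to be detected in 5% of its cells and 2-fold above that median. Further rules on leading genes and depth could leave a cluster unnamed. UMIs were summed per animal and cell type (at least 20 cells), and pig genes that reached 10 counts in total entered the quasi-likelihood test of edgeR (version 4.0.16, R 4.3.3), with adjusted p under 0.05 as a call and DESeq2 1.42.0 as an alternative. The 2 sums of each pig come from the same animal, and their deviations correlated at 0.35, 0.35 and 0.25. Contrasts with single cell types came from a joint fit with a group for each type. This fit also took all sums of a pig as independent, except where the pig was a block. Cells were thinned to 500 UMIs for shares. A count of 0 allows up to 3 counts, and such limits cover counting error only. The SE of an edgeR log2 fold was not fitted directly: it is the size of the fold divided by the square root of its F statistic. The edgeR step was tested on simulated data. The members and lists were chosen with earlier results of these data known. Named genes were the 7, the 3 genes nearest in pattern to each, and up to 3 genes of each family list with the highest mean level in Sertoli-like cells. The nearest gene on each side of the 7 that the gene table lists by symbol was also named. Other genes of those lists were named after their values were seen. Alternatives changed the scaling, the count filter, the test, the replicate block, the animals, cell calling, clustering and doublet removal.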

Additional observations from a re-analysis of the deposited data

Results flagged for a closer look

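Several genes lay on opposite sides in the 2 species in every animal, and none of these differences between cattle and pig was tested. AARD was 513 CPM higher on average in Sertoli-like than in all other named cells of cattle and stood at -0.667 CPM by the same difference in pig, where the whole signal was 14 UMIs in germ-like cells and lay under the limit that 0 UMIs in Sertoli-like cells allows in pig 1 and 3. AQP1 differed by -11.7 CPM in cattle and 28.5 CPM in pig. SPINT2, a Kunitz-type inhibitor of cell surface proteases, differed by 192 CPM in cattle, where its Sertoli-like level varied widely (288 ± 250 CPM, SD, n = 3), and by -20.5 CPM in pig, where endothelial-like and macrophage-like cells held the most (129 and 116 CPM). Within pig, SPINT2 was not called in either direction (log2 fold -0.295 ± 0.318, adjusted p = 0.525, edgeR's quasi-likelihood test). WFDC2 differed by -5.59 CPM in cattle and 25.8 CPM in pig.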

How the results depend on the processing

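Of the 71 alternatives to counts, 51 stayed within the same range, and these include the cattle counts of the 7 genes. All 7 genes were highest in Sertoli-like cells of every cattle animal in each of the 8 alternatives run. Since cattle values chose the genes, nothing is read from their staying highest there. FATE1 and SPOCK2 kept their call against all other pig cells in all alternatives run, with log2 folds of 2.61 to 3.92 and 3.30 to 4.43. Genes called higher in pig Sertoli-like cells numbered 1589, against 926 with library size alone, 2659 with the replicate block, 948 with every barcode of at least 500 UMIs and 250 to 1645 with 1 pig left out. Those above every other type numbered 129, against 36, 327, 6 and 26 to 152 in the same order, and 85 with no doublets left out. The members among them numbered 1, against 0 with library size alone, 2 with the block, 0 to 1 with 1 pig left out, 0 with at least 500 UMIs, 2 at Leiden resolution 0.5, 0 at resolution 2 and 0 with no doublets left out. With pig 2 or pig 3 left out, the counts above every other type do not cover endothelial-like cells, which were not compared there. Members highest in every pig numbered 1 with 8000 expected cells. Against all other pig cells, the block changed the call of AQP8 and of none of FATE1, SPOCK2 and CRYAB. AQP8 was also called with every gene of at least 1 count (adjusted p = 0.0434, edgeR) and by DESeq2 (0.0230). The causes were not tested. AQP8 in pig Sertoli-like cells rests on 1, 20 and 22 UMIs.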
